A study of Rattus norvegicus with 21 samples.

Results

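Gad1, Gad2, Sst and Pvalb, 4 genes that mark the inhibitory neurons of the brain, were followed over the 3 cortex and 3 hippocampus groups of a rat study of repeated high-altitude exposure. They were taken by their Ensembl IDs (ENSRNOG00000000007, ENSRNOG00000018200, ENSRNOG00000001837 and ENSRNOG00000006471 in that order) from a table of 30560 genes by a rule that names the IDs and uses no measured value. All 4 were present, had reads in every library and passed the filter on low values (a mean of at least 10 normalized counts).

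The animals were male wild-type SD rats, 4 weeks old on arrival, which weighed about 200 g after 2 weeks of acclimation. Of 12 rats, 8 went through hypobaric hypoxia in a chamber whose pressure and oxygen were lowered to those of altitude, and 1 of them died. Each of the 6 cycles, given every 3 days, paused at 10000 ft for 1 min and then held 28000 ft for 5 min. The control groups had no exposure and were kept at normal oxygen; the 24 h and 48 h groups are named for the time from the last cycle to death. RNA came from 50 mg pieces of whole tissue labelled brain cortex or hippocampus, with 4 control, 3 libraries at 24 h and 3 at 48 h from each. The labels do not say whether a replicate number means the same rat in both tissues. Only 4 rats were controls and each tissue had 4 control libraries, so rats were shared between the tissues. The main tests between tissues took the libraries as independent. The question was how the transcripts of each tissue differ after exposure.

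Inhibitory neurons use GABA, which the glutamate decarboxylases GAD67 (encoded by Gad1) and GAD65 (encoded by Gad2) make from glutamate. Gad1 supplies GABA throughout the cell and Gad2 sits mainly at nerve terminals, close to synaptic vesicles. Somatostatin (Sst), a neuropeptide, marks interneurons that contact the dendrites of their targets, and parvalbumin (Pvalb), a calcium-binding protein, marks fast-spiking interneurons, many of which contact cell bodies. Sst and Pvalb label largely separate cells in cortex and hippocampus, whereas the decarboxylases are shared by nearly all GABA neurons.

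The 250 bases before the annotated transcript start of Gad1 (chr3:75777202-75777451) and of Gad2 (chr17:89671468-89671717), both on the plus strand of GRCr8, are shown from RefSeq because the levels of these genes went together across hippocampal libraries. Capitals mark ACGTG and GCGTG, the core letters bound by hypoxia-inducible factors, searched on both strands, so that an opposite-strand match reads CACGT or CACGC.
Gad1: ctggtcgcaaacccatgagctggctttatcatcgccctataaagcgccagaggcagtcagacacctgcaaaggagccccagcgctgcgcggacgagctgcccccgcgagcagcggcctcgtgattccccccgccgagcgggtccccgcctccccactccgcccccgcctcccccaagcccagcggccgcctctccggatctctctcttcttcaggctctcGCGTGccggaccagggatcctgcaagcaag
Gad2: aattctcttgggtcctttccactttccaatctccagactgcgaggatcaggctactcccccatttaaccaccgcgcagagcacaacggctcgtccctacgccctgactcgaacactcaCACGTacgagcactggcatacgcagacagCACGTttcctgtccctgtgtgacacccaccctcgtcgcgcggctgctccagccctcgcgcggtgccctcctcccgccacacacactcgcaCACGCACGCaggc
The Gad1 window held 1 match, a GCGTG 30 bases before the start. The Gad2 window held 4, all on the opposite strand, of which 2 were ACGTG and 2 were GCGTG, and the last pair overlapped. The windows of Sst and Pvalb, not shown, also held matches, 1 GCGTG in Sst and 2 in Pvalb. Matches were thus not particular to Gad1 and Gad2. Of 33469 windows of 250 bases, 36.7% held either motif, 16.6% ACGTG and 25.9% GCGTG. The best-known control element of Sst is the palindrome TGACGTCA, the cAMP response element, and the 30 bases around its match (chr11:90461537-90461566, plus strand) are shown with it in capitals.
Sst TGACGTCA: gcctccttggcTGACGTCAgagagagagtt
This match began 2 bases past the annotated start, and 1.83% of 33469 windows of 300 bases held the same letters. A match is a description of letters and not a bound site.

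Values are normalized read counts, that is, reads of a gene scaled by a size factor for the library. Hippocampus control replicate 1 held 4654096 reads in genes and the other 19 libraries 11214566 to 19304803. The lowest count behind any value of the 4 genes was 67 reads. Libraries were also placed on a scale from 0 (cortex) to 1 (hippocampus), using genes at least 4-fold apart between the tissues. Of 10 cortex libraries 8 lay between -0.10 and 0.11, and of 10 hippocampus libraries 8 lay between 0.84 and 1.24. Cortex control replicate 3 lay at 0.41, cortex 24 h replicate 3 at 0.26, hippocampus control replicate 2 at 0.30 and hippocampus 24 h replicate 2 at 0.46. Values without single libraries are given beside the results they move most, and the part of tissue position in a result was not tested. In tissue made of many cell types, fewer cells of a type and less RNA per cell cannot be told apart.

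**Figure D1:**
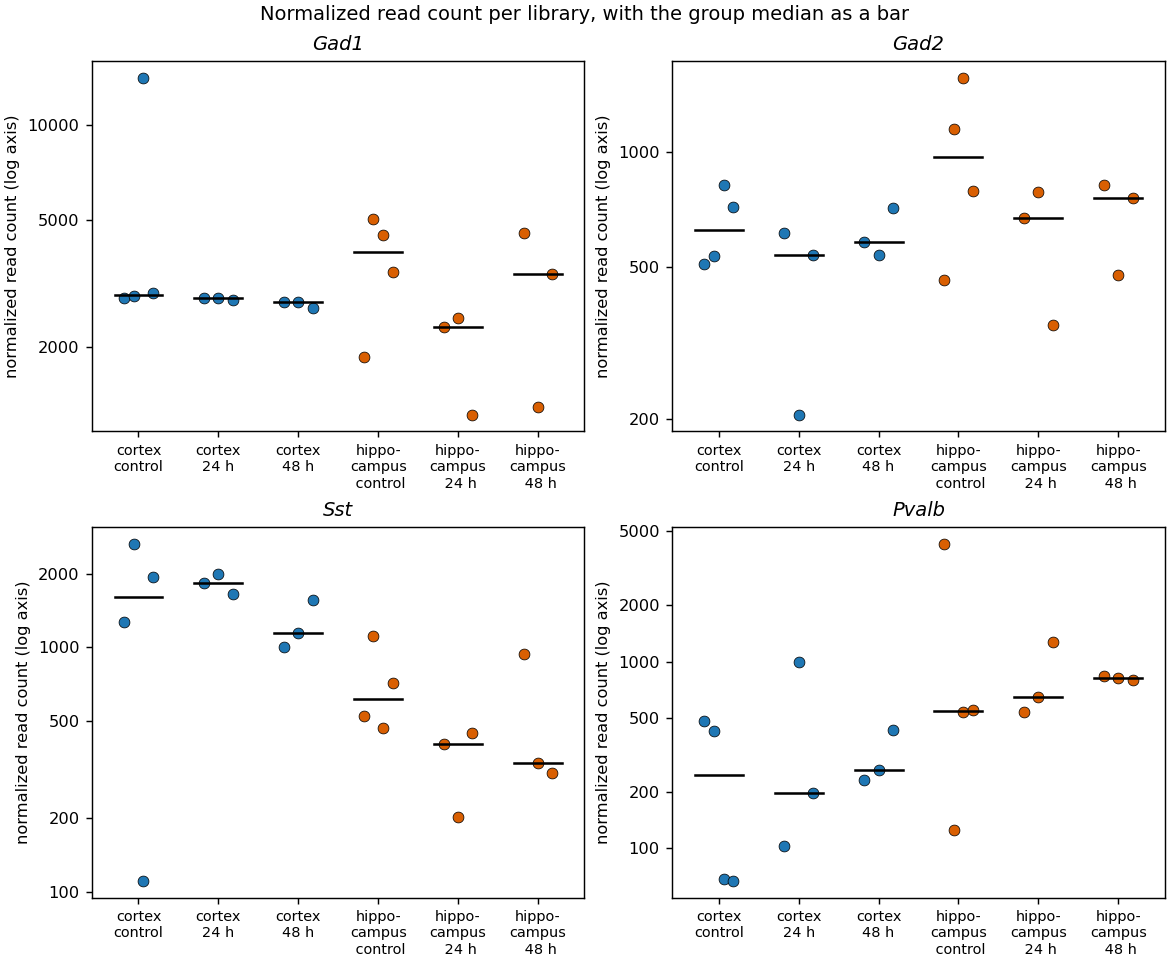
Normalized read count (log axis) of Gad1, Gad2, Sst and Pvalb in each library (points), by tissue and group, with the group median as a bar. Gad1 in cortex forms a narrow band except for 1 control library at 14072, Sst lies lower in most hippocampus libraries than in cortex, and Pvalb has the widest span, from 66.8 to 4272.

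Gad1 in cortex stayed in a narrow range in 9 of 10 libraries and was far higher in 1 control. Control replicates 1, 2, 3 and 4 gave 2849.7, 2892, 14072 and 2943 normalized counts. Replicates 2, 3 and 4 at 24 h gave 2836, 2847 and 2813, and replicates 1, 2 and 3 at 48 h gave 2771, 2759.6 and 2643. Apart from control replicate 3, which was 4.86 times the mean of the other 3 controls, all cortex values fell between 2643 and 2943, with a coefficient of variation of 3.06% (n = 9). At 24 h the SD of Gad1 on the log2 scale was 0.0087, against a median of 0.288 over all genes, and 0.122% of 14783 genes had a smaller SD in those 3 libraries. At 48 h the SD was 0.038 against a median of 0.198, with 3.67% of genes below it.

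All 6 exposed cortex libraries had less Gad1 than any of the 4 controls, which 0.548% of genes also showed in that direction. The 24 h values alone lay below all controls for 4.98% of genes, and the 48 h values for 5.5%. The separation was small: the nearest values, 2847 at 24 h and 2849.7 in control replicate 1, lay closer together than the SD within the 24 h group, 17.1. The control mean was 5689 ± 5589 (SD, n = 4), against 2832 ± 17.1 at 24 h and 2724 ± 70.8 at 48 h (n = 3 each). limma gave a log2 change of -0.60 at 24 h (95% interval -1.69 to 0.49, adjusted p = 0.768) and -0.66 at 48 h (-1.75 to 0.43, adjusted p = 0.885). Without control replicate 3 the control mean was 2895 ± 46.6 (n = 3) and the changes were -0.03 (-0.24 to 0.18, adjusted p = 0.919) and -0.09 (-0.30 to 0.12, adjusted p = 0.995). The 48 h values were also all below the 24 h values, as for 10.1% of genes, with a log2 difference of -0.06 (adjusted p = 0.983).

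Gad2, the enzyme of nerve terminals, showed no separation of the cortex groups. Its control values were 509, 533, 819 and 719, its 24 h values 614, 206 and 537, and its 48 h values 581, 539 and 713. The low value of 206 belonged to 24 h replicate 3, and all other cortex libraries overlapped between groups. Means were 645 ± 149 in control (n = 4), 452 ± 217 at 24 h and 611 ± 90.7 at 48 h (n = 3 each). The log2 change was -0.63 at 24 h (-1.40 to 0.14, adjusted p = 0.664) and -0.06 at 48 h (-0.83 to 0.71, adjusted p = 0.979). Without 24 h replicate 3 the mean at 24 h was 575 ± 53.9 (n = 2) and the change was -0.14 (adjusted p = 0.863). The 48 h change took a positive sign in 3 fits that left out a library, 0.06 without control replicate 3 and smaller values without control replicate 4 or 48 h replicate 2.

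Sst in cortex had a single very low control and otherwise ranged from 1000.3 to 2645. Control replicates 1 to 4 gave 1266, 2645, 111 and 1936. The 24 h libraries gave 1830.3, 1996 and 1653, and the 48 h libraries 1000.3, 1140.5 and 1565. The control at 111 was replicate 3, the library with the high Gad1 count, and the mean of the other 3 controls was 17.5 times higher. Every 48 h value lay below every 24 h value, a downward separation shared by 10.1% of 14783 genes, and the means were 1826 ± 172 and 1235 ± 294 (n = 3 each). That difference was -0.59 on the log2 scale (-2.69 to 1.52, adjusted p = 0.863) in the fit that shares the spread of all 3 cortex groups.

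Against control (1489.7 ± 1078, n = 4), Sst differed by 0.98 at 24 h (-0.99 to 2.95, adjusted p = 0.790) and by 0.39 at 48 h (-1.57 to 2.36, adjusted p = 0.941). Without control replicate 3 both values turned negative: -0.03 at 24 h (-0.62 to 0.55, adjusted p = 0.973) and -0.62 at 48 h (-1.20 to -0.04, adjusted p = 0.995). The direction of the Sst change in cortex therefore depended on 1 control library. At 48 h it also depended on the tool, as edgeR gave -0.26 and DESeq2 -0.27 with all libraries.

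Pvalb varied widely within each cortex group. Controls gave 482, 426, 68.4 and 66.8, the 24 h libraries 102, 998 and 197, and the 48 h libraries 232, 263 and 430.4. The high value of 998 was in 24 h replicate 3, the library with the lowest Gad2. The pair of low controls included replicate 3 and also replicate 4, whose Gad1 and Sst were near those of the other controls. Group means were 261 ± 224 (n = 4), 433 ± 492 and 309 ± 107 (n = 3 each), and the SDs on the log2 scale, 1.58, 1.69 and 0.47, were above the medians over all genes of 0.309, 0.288 and 0.198. Changes were 0.63 at 24 h (-1.37 to 2.64, adjusted p = 0.874) and 0.76 at 48 h (-1.25 to 2.76, adjusted p = 0.887). Without 24 h replicate 3 the 24 h change was -0.30 (adjusted p = 0.929). Without control replicate 3 the changes were 0.18 and 0.31, and without control replicate 4 they were 0.17 and 0.30.

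In cortex 0 of the 4 genes passed the threshold (adjusted p 0.05) at 24 h, at 48 h, between these times or for both times together, as did 0% of 14783 genes in limma. At an unadjusted p of 0.05 the same fits held 1177, 515, 1675 and 578 genes (7.96%, 3.48%, 11.3% and 3.91%), and none of the 4. edgeR called 0 genes in each. DESeq2 called 41, 2, 145 and 0 genes, again without any of the 4. With library weights limma called 1335 genes (9.03%) between 24 h and 48 h, and none of the 4 was among them.

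Gad1 in hippocampus spread widely within each group. Control replicates 1 to 4 gave 1860.0, 5033, 4495 and 3429.7, replicates 2 to 4 at 24 h gave 2311, 2455 and 1219.9, and replicates 1 to 3 at 48 h gave 4551, 1289 and 3388. The 24 h values lay below 3 of the 4 controls, and the remaining control, replicate 1, was the library with the fewest reads. Means were 3705 ± 1399 in control (n = 4), 1995 ± 675 at 24 h and 3076 ± 1653 at 48 h (n = 3 each). The log2 change was -0.86 at 24 h (-1.95 to 0.22, adjusted p = 0.851) and -0.36 at 48 h (-1.44 to 0.73, adjusted p = 0.928). Without control replicate 1 the 24 h change was -1.16 (-2.20 to -0.12), with an unadjusted p of 0.0327 and an adjusted p of 1.00 in limma. Without 24 h replicate 4, the library at 1219.9, it was -0.54 (-1.76 to 0.68, unadjusted p = 0.340). At 48 h the change ran from -0.73 without 48 h replicate 1 to 0.18 without 48 h replicate 2, the library at 1289.

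Gad2 in hippocampus followed the same libraries. Controls gave 462, 1152, 1563 and 792, the 24 h libraries 674, 784 and 352, and the 48 h libraries 821, 477 and 760.3. The lowest values of both decarboxylases were in 24 h replicate 4, 48 h replicate 2 and control replicate 1, and the 3 highest values of each were in control replicates 2 and 3 and 48 h replicate 1. Means were 992 ± 474 (n = 4), 603 ± 224 and 686 ± 183 (n = 3 each). Changes were -0.66 at 24 h (-1.63 to 0.31, adjusted p = 0.851) and -0.43 at 48 h (-1.40 to 0.54, adjusted p = 0.928). Without control replicate 1 they were -0.98 (unadjusted p = 0.0258) and -0.75 (unadjusted p = 0.0700), each with an adjusted p of 1.00 in limma. The other end of the fits that left out a library was -0.31 at 24 h, without 24 h replicate 4, and -0.17 at 48 h, without control replicate 3.

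Sst in hippocampus was lower at 24 h than in every control. Controls gave 522, 1108, 467 and 712, the 24 h libraries 402, 203 and 448, and the 48 h libraries 939, 336 and 305. All 3 values at 24 h lay under the lowest control, a separation downward that 1.83% of 15028 genes showed, and at 48 h 2 of 3 did. Means were 702 ± 290 (n = 4), 351 ± 130 and 527 ± 358 (n = 3 each). The log2 change at 24 h was -0.99 (-2.04 to 0.05), with an unadjusted p of 0.0592 and an adjusted p of 0.851 in limma, so it did not pass. It was -0.64 without 24 h replicate 3, the library at 203, and -0.75 without control replicate 2, the library at 1108. The most negative value, -1.21, was without 24 h replicate 4. At 48 h the change was -0.53 (-1.57 to 0.51, adjusted p = 0.928), and it ran from -1.05 without 48 h replicate 1 (unadjusted p = 0.0376, adjusted p = 0.972) to -0.24 without 48 h replicate 3.

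Pvalb in hippocampus had 1 control far above all other libraries. Controls gave 4272, 125, 535 and 547, the 24 h libraries 536, 648 and 1275, and the 48 h libraries 836, 822 and 800.5. The value of 4272 was in control replicate 1, at 10.6 times the mean of the other 3 controls (402 ± 240, n = 3). The value of 125 was in control replicate 2, which lay nearer to the cortex end of the tissue scale. The 48 h libraries were close together, at 819 ± 17.9 (n = 3). Their SD on the log2 scale was 0.032 against a median of 0.285, and 1.28% of 15028 genes had a smaller one.

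With all controls (1369.7 ± 1945, n = 4) the Pvalb change was 0.28 at 24 h (-1.76 to 2.31, adjusted p = 0.928) and 0.38 at 48 h (-1.66 to 2.42, adjusted p = 0.943). Without control replicate 1 it was 1.20 at 24 h (-0.06 to 2.45, unadjusted p = 0.0589) and 1.30 at 48 h (0.05 to 2.55, unadjusted p = 0.0434), each with an adjusted p of 1.00 in limma. Without control replicate 2 it was -0.50 at 24 h and -0.39 at 48 h, and without 24 h replicate 4 the 24 h change was -0.10. With all controls edgeR and DESeq2 gave negative changes at both times, -0.66 and -0.71.

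In hippocampus, too, 0 of the 4 genes and 0% of 15028 genes passed in limma at 24 h, at 48 h, between the times or for both together. The counts at an unadjusted p of 0.05 were 320, 241, 25 and 480 genes (2.13%, 1.6%, 0.166% and 3.19%), and none of the 4 was among them. edgeR called 0 genes in each, and DESeq2 called 2, 3, 1 and 9, none of them a decarboxylase, Sst or Pvalb.

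**Figure D2:**
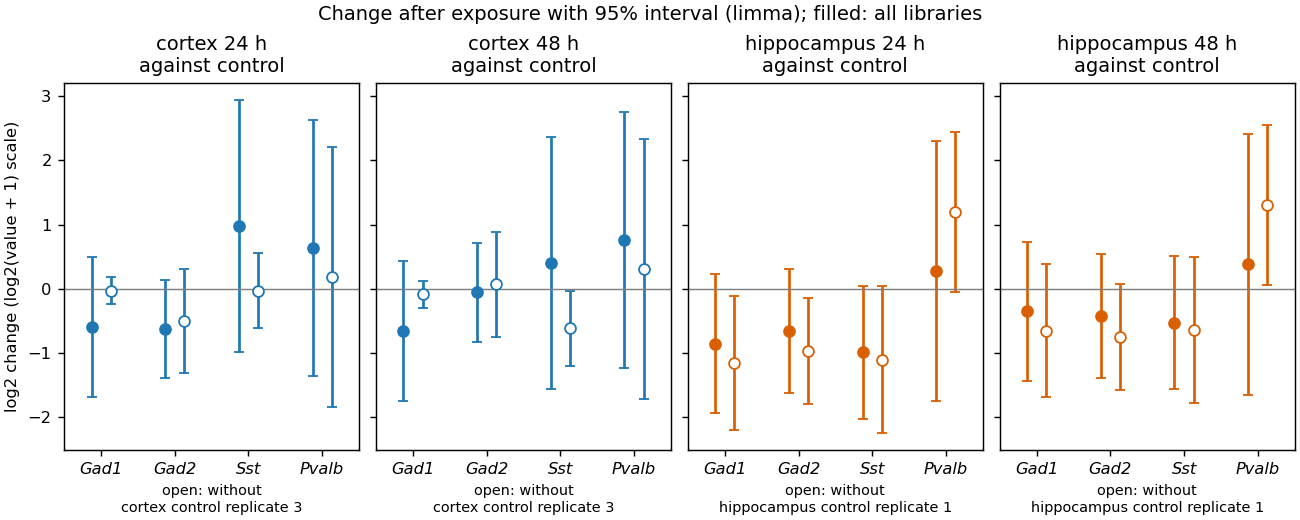
log2 change against control with its 95% interval from limma, for each gene, tissue and time, with all libraries (filled) and without the control library farthest from the others (open). Leaving out cortex control replicate 3 narrows the Gad1 interval to -0.24 to 0.18 at 24 h, and leaving out hippocampus control replicate 1 moves Pvalb from 0.28 to 1.20.

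Between the tissues, Sst was on average 2.72-fold lower in hippocampus, and it was the only gene of the 4 to pass. Averaged over the 3 exposure groups, the log2 difference (hippocampus minus cortex) was -1.44 (SE 0.44, 95% interval -2.38 to -0.51, adjusted p = 0.0267, limma, 10 libraries of each tissue). In this fit 21.8% of 15017 genes passed, 11.1% lower and 10.6% higher in hippocampus, so a call here was not rare. Cortex libraries held 111 to 2645 normalized counts of Sst with a median of 1609, and hippocampus libraries 203 to 1108 with a median of 458. The ranges overlapped through cortex control replicate 3 at the bottom and through hippocampus control replicate 2 at the top of their ranges.

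By group, Sst was lower in hippocampus by -0.48 in control (-1.94 to 0.99, adjusted p = 0.707), -2.45 at 24 h (-4.15 to -0.76, adjusted p = 0.128) and -1.40 at 48 h (-3.10 to 0.29, adjusted p = 0.342) on the log2 scale. None of these passed, against 2.9%, 1.8% and 5.29% of genes that did. At 24 h the hippocampus values, up to 448, all lay below the lowest cortex value of 1653, as for 14.1% of genes. At 48 h the highest hippocampus value was 939 and the lowest cortex value 1000.3, a separation in the lower direction shared by 21.5% of genes. The difference between the tissues in the 24 h response was -1.97 (-4.22 to 0.27, adjusted p = 0.856), and at 48 h it was -0.92 (-3.17 to 1.32, adjusted p = 0.998). In both interactions limma called 0 of the 4 genes and 0% of 15017. At an unadjusted p of 0.05 there were 522 and 198 genes (3.48% and 1.32%), none of them among the 4.

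The Sst call was sensitive to single libraries. It was kept in 16 of 20 fits that left out 1 library, with differences from -1.78 to -1.28. It was lost without hippocampus 24 h replicate 3 (adjusted p = 0.0574), hippocampus 48 h replicate 2 (0.0572), cortex 48 h replicate 3 (0.0550) or hippocampus 48 h replicate 3 (0.0513). Without cortex control replicate 3 it was -1.78 (-2.29 to -1.27, adjusted p = 8.66e-05), the control comparison became -1.49 (adjusted p = 0.0450), the 24 h comparison passed (adjusted p = 0.0121), and the tissue differences in the response became -0.96 at 24 h and 0.09 at 48 h. The 24 h response difference was -0.83 without the 5 libraries doubted in earlier work (cortex control replicate 3, cortex 24 h replicate 3, hippocampus control replicates 1 and 2 and hippocampus 24 h replicate 2), and -1.30 in DESeq2. Without cortex control replicate 2 the control comparison was 0.03. edgeR gave -1.54 (adjusted p = 0.00760) and DESeq2 -1.56 (adjusted p = 0.000344) with all libraries.

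Pvalb leaned the other way without passing. Its average difference was 1.59 (0.38 to 2.80), a 3.01-fold higher level in hippocampus, with an adjusted p of 0.0559 in limma. Cortex libraries ranged from 66.8 to 998 with a median of 248, and hippocampus libraries from 125 to 4272 with a median of 724. The 48 h values of hippocampus all exceeded those of cortex, as for 20.5% of genes. The differences by group were 1.84 in control (adjusted p = 0.276), 1.48 at 24 h (adjusted p = 0.552) and 1.46 at 48 h (adjusted p = 0.460). In control the value was 0.92 without hippocampus control replicate 1 and 2.61 without hippocampus control replicate 2. At 24 h it was 0.78 without cortex 24 h replicate 2 and 2.41 without cortex 24 h replicate 3, and none of these 4 values passed.

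The Pvalb average passed in 4 of 20 fits that left out 1 library, those without cortex control replicate 1 (adjusted p = 0.0414), cortex control replicate 2 (0.0469), hippocampus control replicate 2 (0.0144) or cortex 24 h replicate 3 (0.0216). Without hippocampus control replicate 1, the library at 4272, the difference was 1.28 (adjusted p = 0.0523). DESeq2 gave 1.57 (adjusted p = 0.0161) and edgeR 1.56 (adjusted p = 0.0537).

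Neither decarboxylase passed between the tissues. Gad1 was -0.30 in hippocampus on average (-0.94 to 0.35, adjusted p = 0.535) and Gad2 was 0.38 (-0.14 to 0.89, adjusted p = 0.298). At 24 h, Gad1 values of hippocampus, up to 2455, lay below the lowest cortex value of 2813, as for 14.1% of genes, with a log2 difference of -0.57 (-1.73 to 0.59, adjusted p = 0.704), and -0.25 without hippocampus 24 h replicate 4. In control the Gad1 difference was -0.31 (adjusted p = 0.722), and 0.26 without cortex control replicate 3. At 48 h it was -0.01 (-1.17 to 1.15, adjusted p = 0.996), with a positive sign without cortex 48 h replicate 1 or 2 and a value of 0.53 without hippocampus 48 h replicate 2. Gad2 was 0.51 higher in control (adjusted p = 0.459), 0.48 at 24 h (adjusted p = 0.676) and 0.14 at 48 h (adjusted p = 0.899). In control it ran from 0.25 without hippocampus control replicate 3 to 0.83 without hippocampus control replicate 1. It was -0.01 at 24 h without cortex 24 h replicate 3, and -0.01 at 48 h without hippocampus 48 h replicate 1.

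**Figure D3:**
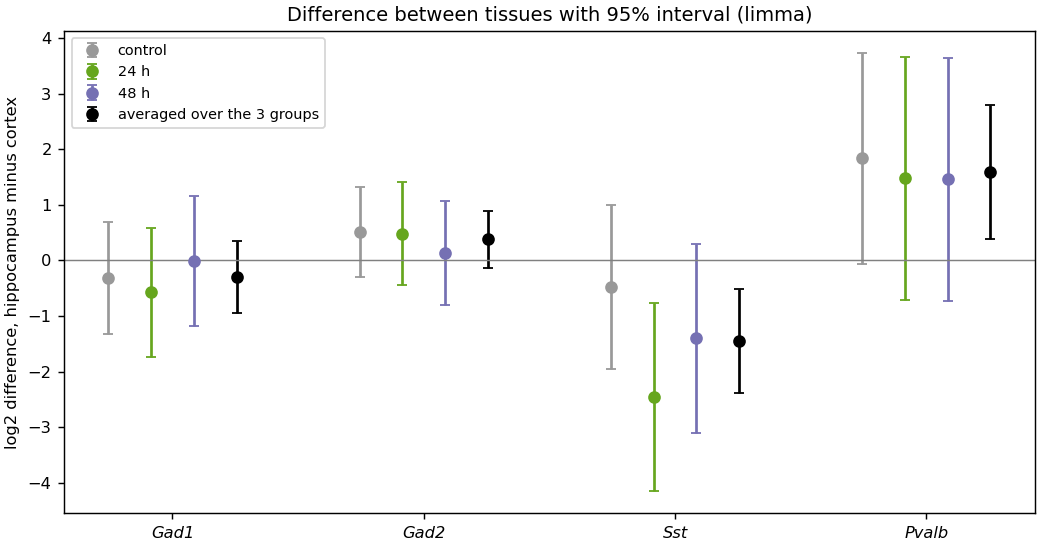
log2 difference (hippocampus minus cortex) of each gene with its 95% interval from limma, in control, at 24 h, at 48 h and averaged over the 3 groups. The averaged interval of Sst, -2.38 to -0.51, and that of Pvalb, 0.38 to 2.80, lie on opposite sides of 0, and those of Gad1 and Gad2 include 0.

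Ordered by mean, the Sst groups ran from cortex at 24 h, control and 48 h to hippocampus control, 48 h and 24 h. Only the step between the tissues, from 1235 ± 294 in cortex at 48 h to 702 ± 290 in hippocampus control, exceeded the SD of both neighbours, and those ranges overlapped. For Pvalb all 3 hippocampus groups stood above all 3 cortex groups in mean, but no step between neighbours exceeded both SDs, and the same held for Gad2. For Gad1 the steps that exceeded both SDs were from cortex at 24 h to cortex at 48 h, and from there to hippocampus at 24 h.

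The ratio of Gad1 to Gad2, compared here between libraries and not as a ratio of transcript numbers, was 2.70 to 5.54 in hippocampus. In 8 of 10 cortex libraries it was 3.71 to 5.60. The other 2 were control replicate 3 at 17.2, from a high Gad1, and 24 h replicate 3 at 13.8, from a low Gad2. The ratio of Sst to Pvalb was above 1 in 10 of 10 cortex libraries (1.63 to 28.97) and in 3 of 10 hippocampus libraries (0.122 to 8.87).

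Across the 10 hippocampus libraries Gad1 and Gad2 went together, which is why their promoter windows were shown side by side. Pearson's r of the log2 values was 0.90 (permutation test, adjusted p = 0.00372) and Spearman's rho 0.94 (permutation adjusted p = 0.00252), over 12 relations tested in the 2 tissues. Without the 2 libraries farthest from the Gad1 median, 24 h replicate 4 and 48 h replicate 2, r was 0.82. Without control replicate 1 it was 0.90 (permutation adjusted p = 0.00480, n = 9). That adjustment took all 12 relations, with cortex control replicate 3 left out of those in cortex. In cortex the same pair had r = 0.36 (permutation adjusted p = 0.227), and -0.18 without control replicate 3.

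Gad2 and Pvalb went in opposite directions in cortex, with r = -0.74 (permutation adjusted p = 0.0194) and rho = -0.77 (permutation adjusted p = 0.0787). Without 24 h replicate 3 and control replicate 3, the 2 libraries farthest from the Gad2 median, r was -0.49. Without control replicate 3 alone r was -0.69 (permutation adjusted p = 0.189, n = 9). The cortex relation was therefore weaker without those libraries, and without control replicate 3 it no longer passed. In hippocampus r was -0.66 (permutation adjusted p = 0.158). It was -0.83 there without 24 h replicate 4 and control replicate 3, the 2 libraries farthest from the Gad2 median. The large r of Gad1 with Sst in cortex, -0.94 (permutation adjusted p = 0.216), came with a rho of 0.21 and became 0.51 without control replicate 3. The other 7 relations had adjusted p-values of 0.213 or more for r.

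**Figure D4:**
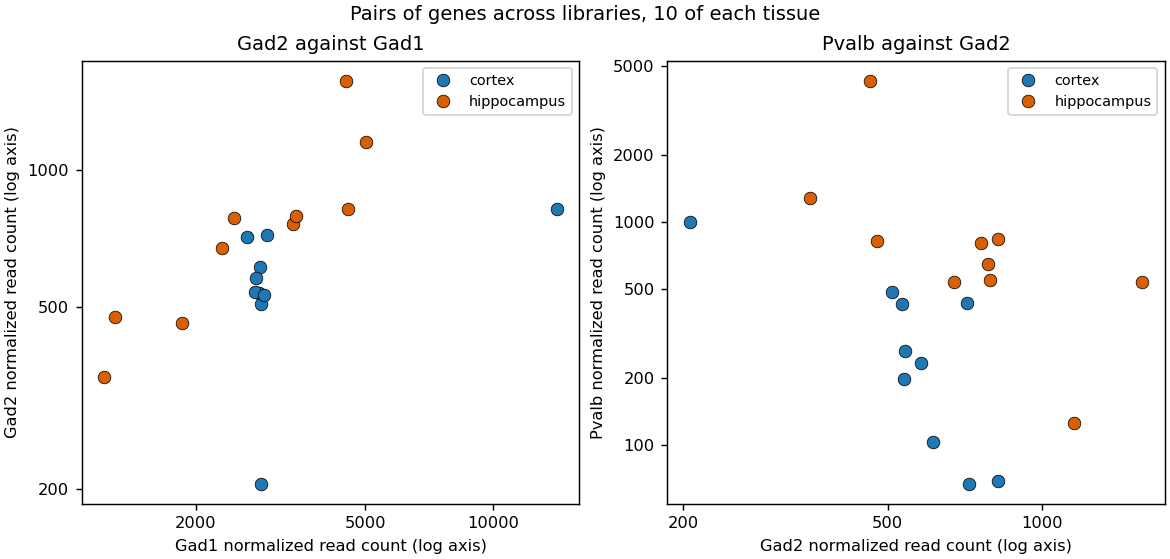
Gad2 against Gad1 (left) and Pvalb against Gad2 (right), in normalized read counts on log axes, with 1 point per library, 10 of each tissue. Hippocampus points rise along the left panel (r = 0.90), while cortex points stand in a column between 2643 and 2943 counts of Gad1 with 1 control at 14072.

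Over all 20 libraries, with each tissue centred on its own mean, Gad2 stood at place 129 among 15016 genes by likeness to Gad1 (Pearson r = 0.65), and Gad1 at place 206 by likeness to Gad2. Sst had r = -0.38 with Gad1 and -0.13 with Gad2, and Pvalb had r = -0.54 and -0.70 with them. The mean profile of the 4 genes had r = 0.50 with Gad1, 0.56 with Gad2, 0.45 with Sst and -0.045 with Pvalb, so it did not follow Pvalb. The IDs most like that profile were ENSRNOG00000001726 (r = 0.77) and ENSRNOG00000001891 (r = 0.74). Both were closer to Sst (r = 0.70 and 0.44) than to Gad1 (0.15 and 0.23), Gad2 (0.24 and 0.22) or Pvalb (0.03 and 0.20). These correlations describe shared variation among libraries that also differed in exposure group, depth and tissue position, whose part was not tested.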

How the data were processed

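Libraries were prepared from TRIzol RNA with a TruSeq Stranded mRNA kit, per the labels' protocols. Per the submitters' processing notes, the tools were fastp 0.20.0, HISAT2 2.1.0 and featureCounts 2.0.1, while genome build, annotation and strand setting were not given in the sources used here. Each value the authors deposited is a signal, the reads of a gene scaled by the library's size factor, and whole reads were recovered for 100% of values (tolerance 0.001).

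Groups came from titles and tissue and treatment labels. A library titled hippocampus but labelled cortex was left out. Values were tested as log2(value + 1), which understates changes of low genes, with limma 3.58.1 in R 4.3.3 (trend, two-sided, Benjamini-Hochberg over genes with a mean of at least 10, threshold 0.05). Each tissue's 10 libraries shared a fit, and tissue contrasts used all 20, taken as independent although the tissues shared rats. edgeR 4.0.16 and DESeq2 1.42.0 on recovered reads, other scalings, pseudocounts, filters, library weights, a replicate block and leaving out libraries were alternatives. The tests were also run on simulated counts with known changes, whose outcome is not reported here. Those counts did not imitate libraries set apart in tissue position. Correlations used 100000 resamples. Members, lists and tests were chosen with earlier results of these data known.

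The table gives no gene names and 0 of 47357 genes of the reference table (GRCr8) carry an Ensembl ID. The names of the 4 genes came with their IDs, the fixed marker lists of GABA neurons and other cells were not analysed here, and tissue labels were checked only by position. The 4 genes are named whatever their values; the 2 IDs named beside them have the largest r to their mean profile. Promoters (RefSeq, GRCr8) were matched by symbol for 4 of 4.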

Additional observations from a re-analysis of the deposited data

Results flagged for a closer look

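Among the 16 sets of 4 control libraries checked (counts of the 4 genes, reads, tissue position and the 2 ratios), 6 had a library set apart from the other 3 beyond the 95% limit of Dixon's gap ratio. The limit is passed in about 1 in 20 sets of independent, normally distributed values. The sets here reuse the same libraries and hold unlogged counts and ratios, so their number cannot be set against that rate. Cortex control replicate 3 had 14072.1 normalized counts of Gad1 and a Gad1 to Gad2 ratio of 17.1808. Cortex control replicate 4 had a Sst to Pvalb ratio of 28.9701, with a low Pvalb count. Hippocampus control replicate 1 had 4272.32 normalized counts of Pvalb and 4654096 reads in genes. Hippocampus control replicate 2 had a Sst to Pvalb ratio of 8.86957.

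The library with conflicting tissue labels, which entered no comparison, held 3587.06 normalized counts of Gad1, 964.198 of Gad2, 750.276 of Sst and 766.811 of Pvalb. It lay at 0.82 on the scale from cortex (0) to hippocampus (1).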

How the results depend on the processing

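Of 428 values of a gene under an alternative other than leaving out 1 library, 388 kept direction and side of the threshold, 22 changed sign and 18 newly passed. Values that changed sign were, in cortex at 24 h, Sst -0.10 without the 5 libraries doubted in earlier work (cortex control replicate 3, cortex 24 h replicate 3, hippocampus control replicates 1 and 2, hippocampus 24 h replicate 2) and Pvalb -0.64 with library weights and -0.75 without those 5. In cortex at 48 h they were Gad2 0.065 without the 5, and Sst -0.26 (edgeR), -0.27 (DESeq2), -0.50 (weights) and -0.62 (without the 5). In hippocampus Pvalb was -0.66 (edgeR) and -0.71 (DESeq2) at both times. Between tissues, Gad1 in control was 0.38 (weights) and 0.44 (without the 5), Gad1 at 48 h 0.018 (TMM), 0.11 (quantile), 0.21 (edgeR) and 0.18 (DESeq2), and Gad2 at 24 h -0.13 (without the 5). The tissue difference in the 48 h response of Sst was 0.28 (weights) and 0.29 (without the 5). The causes were not tested. The number of the 4 genes called between tissues went from 0 in control, where 2.9% of all genes were called, to 1 (DESeq2, 8.88% of all genes), 2 (weights, 25.2%) and 1 (without the 5, 17.1%). At 24 h it went from 0 (1.8%) to 1 (DESeq2, 6.21%), 2 (weights, 23.2%), 1 (only those groups in the fit, 0.584%) and 2 (without the 5, 15.7%), and at 48 h from 0 (5.29%) to 1 (only those groups, 18.8%) and 1 (without the 5, 27.9%). Averaged, it went from 1 (21.8%) to 2 (quantile, 23.5%), 2 (DESeq2, 25.8%), 3 (weights, 51.6%) and 2 (without the 5, 45.8%). None of the 4 genes was called after exposure under any alternative run. Under the alternatives where they were counted, the exposure calls among all genes ranged from 0% to 9.03% (1335 genes, cortex 48 h against 24 h with weights). This range does not include fits that left out 1 library. It also does not include fits with other pseudocounts, no filter on low values, TMM scaling or no intensity trend.

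Same-numbered libraries of both tissues had r from -0.290 to 0.136, and 3 of 10 correlated best with their own number. With so few libraries per group, this cannot tell whether equal numbers mean the same rat. With a replicate block Gad2 in cortex at 48 h was 0.051, the number called on average between tissues was 2 (Pvalb adjusted p = 0.0491, limma, 17.2% of all genes called), and no other call of these genes changed.

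Leaving out 1 library kept 512 of 540 values, with 18 changes of sign, 6 values newly past the threshold and 4 no longer past it. Ranges that crossed 0 were, in cortex at 24 h, -0.034 to 1.49 (Sst) and -0.30 to 1.33 (Pvalb), and at 48 h -0.18 to 0.065 (Gad2) and -0.62 to 0.90 (Sst). In hippocampus they were -0.50 to 1.20 (Pvalb, 24 h), -0.73 to 0.18 (Gad1, 48 h) and -0.39 to 1.30 (Pvalb, 48 h). Between tissues they were -0.51 to 0.26 (Gad1, control), -1.49 to 0.028 (Sst, control), -0.0079 to 0.83 (Gad2, 24 h), -0.38 to 0.53 (Gad1, 48 h), -0.011 to 0.38 (Gad2, 48 h) and -1.44 to 0.089 (48 h response of Sst). The number called was 0 to 1 in control and 0 to 1 at 24 h. The 1 in each was Sst without cortex control replicate 3, where 4.29% and 2.9% of all genes were called. Averaged, the number called was 0 to 2. The share of all genes was then 24.8% without cortex control replicate 3 and 32.7% without hippocampus control replicate 1. For the other averaged fits that left out a library the share is not given here, so these counts describe only the fits. The cortex correlations without control replicate 3 were -0.18 (Gad1 and Gad2), 0.51 (Gad1 and Sst) and -0.69 (Gad2 and Pvalb). In cortex at 24 h the 95% intervals, not adjusted over genes, reached 1.97 (Sst) and 2.00 (Pvalb) log2 units to either side. An estimated change smaller than that could not pass, and a larger one could also fail after adjustment. In that fit 1177 genes had an unadjusted limma p under 0.05 and 0 passed after adjustment. Without cortex control replicate 3 the Sst interval was -0.62 to 0.55.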
